A study of Mus musculus with 46 samples.

Results

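The feeding peptide receptors described here are 8 G protein-coupled receptors for gut and hypothalamic peptides that act on appetite: *Ghsr*, *Mc3r*, *Mc4r*, *Npy1r*, *Npy2r*, *Npy5r*, *Glp1r* and *Calcr*. They were chosen by name and make up 8 of the 31854 genes in the RNA count table. ATAC-seq peaks were included when they lay within 50 kb of a start site of 1 of these genes in mm10, which gave 55 of 123721 peaks in the table of feeding states and 30 of 67472 in the table of sorted nuclei. *Npy1r* and *Npy5r* are neighbors transcribed away from each other, so that they share peaks. The peak closest inside the limit lay at +49.1 kb of *Glp1r* and the closest outside it at +50.8 kb of *Mc4r*.

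Ghrelin, released by the empty stomach, acts through the *Ghsr* product and excites AgRP neurons, whereas peptide YY acts through the *Npy2r* product, an inhibitory receptor that also senses NPY at the terminals of the neurons releasing it. The *Mc3r* and *Mc4r* products bind melanocortins made from POMC and are opposed by AgRP itself. The *Npy1r* and *Npy5r* products are the main postsynaptic receptors for NPY, the *Glp1r* product binds GLP-1, and the *Calcr* product binds calcitonin and, together with receptor activity-modifying proteins, amylin.

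In mm10 the genes lie on chromosome 3 from 27371351 to 27378010 (*Ghsr*, forward strand) and from 82538383 to 82548084 (*Npy2r*, reverse), on chromosome 2 from 172248492 to 172251114 (*Mc3r*, forward) and on chromosome 18 from 66857704 to 66860506 (*Mc4r*, reverse). *Npy1r* (forward) spans 66697192 to 66706792 and *Npy5r* (reverse) 66679965 to 66688128 of chromosome 8. *Glp1r* (forward) spans 30901817 to 30940791 of chromosome 17, and *Calcr* (reverse) spans 3685680 to 3764714 of chromosome 6.

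The mice behind the RNA and ATAC-seq libraries were male C57BL/6J animals that carried the NuTRAP allele, which makes a GFP-tagged L10a ribosomal subunit and an mCherry-tagged RANGAP nuclear envelope protein wherever Cre recombinase has acted. Cre came from the AgRP-IRES-Cre allele (NuTRAP-AgRP) or from the POMC-IRES-Cre allele (NuTRAP-POMC), so the tagged cells are those in which either promoter is or has been active. Mice were 6 to 11 weeks old, and the arcuate nuclei (ARC) of 4 animals were pooled in each sample. Fed mice ate ad libitum and received PBS, fasted mice had no food for 18 to 20 h and received PBS, and leptin mice were fasted likewise and received leptin at 5 mg/kg. Tissue was taken 3 h after the injection. Ribosome-bound RNA (TRAP) was sequenced from NuTRAP-AgRP mice in 3 fed, 4 fasted and 4 leptin libraries and from NuTRAP-POMC mice in 2 libraries per state. ATAC-seq was performed on GFP-positive and GFP-negative ARC nuclei of fed NuTRAP-AgRP mice that had received no injection (2 libraries each) and on AgRP nuclei of each feeding state (2 libraries each). The positive and negative nuclei were sorted from shared pools. The p-values below therefore measure the spread between pools of mice. The IRF3 CUT&RUN list used at the end came from fed mice of the IRF3-2D model, whose AgRP neurons express a constitutively active form of this transcription factor under Cre.

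RNA libraries held 25581041 to 54511107 counts, libraries of sorted nuclei 8685497 to 11177208 and ATAC-seq libraries of feeding states 8263234 to 17190963. All 7 AgRP neuron markers were higher in NuTRAP-AgRP libraries and all 5 POMC neuron markers were higher in NuTRAP-POMC libraries. Summed over the list, AgRP markers lay between 2026 and 8367 CPM (read counts scaled to the size of each library) in the former and between 331 and 669 CPM in the latter. POMC markers summed to 1703 to 3113 CPM in NuTRAP-POMC and to 134 to 188 CPM in NuTRAP-AgRP libraries. *Pomc* itself had state means of 23.5 to 38.4 CPM in NuTRAP-AgRP libraries. The part of RNA from untagged cells in low receptor values was not tested. *Slc1a2*, a glutamate transporter of astrocytes, set 6 libraries apart: it stood at 20180 to 26972 CPM in replicate 4 of each AgRP state and in replicate 2 of each POMC state, against 2381 to 3850 CPM in the other 8 AgRP libraries and 5217 to 6204 CPM in the other 3 POMC libraries. Those 6 libraries are called the high-*Slc1a2* libraries, and results that depend on them are given with and without them.

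The 8 receptors differed widely in level between the neuron types. Compared per kilobase of counted exon, *Npy2r* was the highest in fed AgRP neurons at 81.2 ± 13.6 CPM per kb (SD, n = 3), followed by *Calcr* at 56.4 ± 4.67, *Ghsr* at 42.8 ± 9.61 and *Mc3r* at 22.4 ± 4.54. *Glp1r* (11.2 ± 1.66) and *Npy1r* (10.6 ± 0.759) did not differ beyond the spread of their libraries, *Npy5r* followed at 5.87 ± 0.816, and *Mc4r* was the lowest at 0.828 ± 0.0780 CPM per kb. In fasted AgRP neurons the highest mean was that of *Ghsr* at 67.2 CPM per kb (n = 4), with *Calcr* at 48.6 and *Npy2r* at 37.3, and these neighbors overlapped between libraries. The same 3 receptors led in leptin mice, at 54.7, 45.1 and 42.7 CPM per kb.

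Fed POMC neurons had another order. *Npy1r* led at 76.2 ± 32.7 CPM per kb (SD, n = 2), ahead of *Npy2r* at 30.4 ± 8.06 and *Glp1r* at 28.8 ± 0.209, which overlapped. *Npy5r* (17.9), *Mc3r* (15.96) and *Calcr* (14.6) formed a middle group whose libraries overlapped, *Ghsr* followed at 6.80 and *Mc4r* was again the lowest at 1.15 CPM per kb. The mRNA of *Mc4r*, the receptor known for satiety signaling in neurons that receive melanocortin input, thus stood near the filter on low values in both neuron types, with 1.56 to 2.80 CPM over 11 AgRP libraries and 2.03 to 3.77 CPM over 6 POMC libraries.

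**Figure D1:**
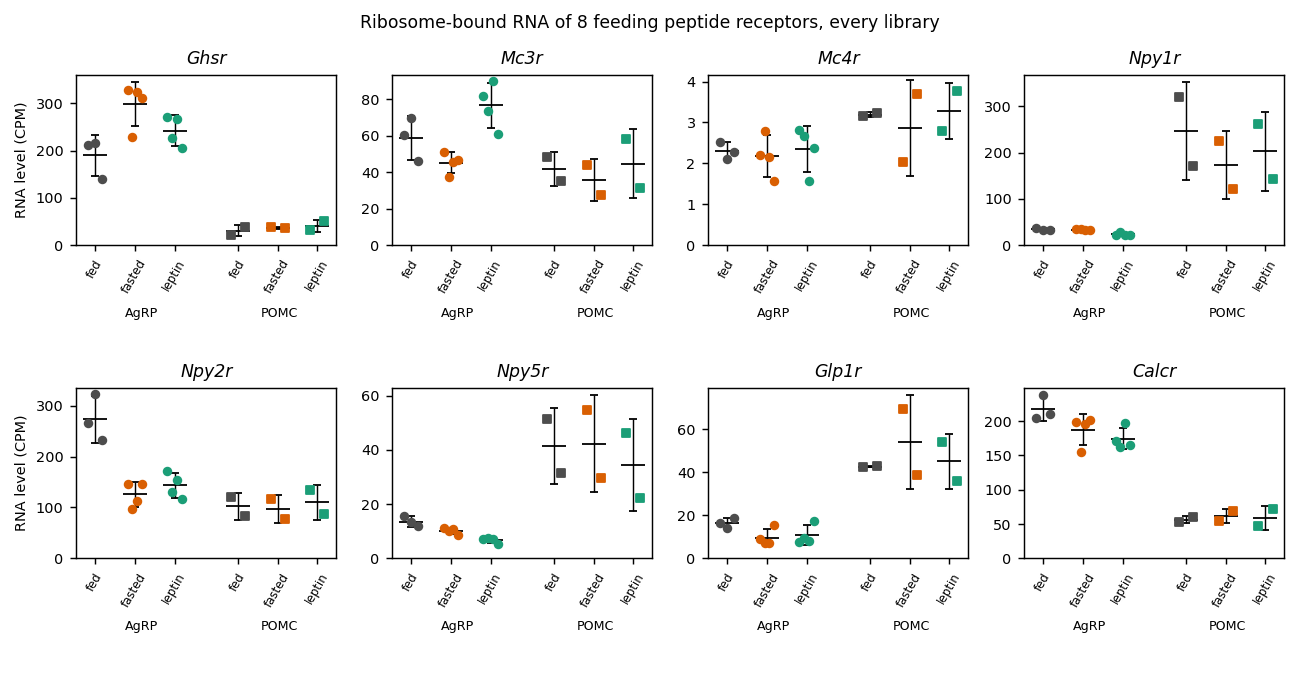
Level of each receptor in each TRAP library, in CPM on a linear axis, by neuron type and feeding state. Each point is 1 library, the wide bar is the group mean and the error bar 1 SD. *Ghsr* and *Calcr* libraries of AgRP neurons all lie above those of POMC neurons, and *Npy1r*, *Npy5r* and *Glp1r* libraries all lie below them.

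The receptors were then compared between AgRP and POMC neurons over the 3 states, in 1 edgeR quasi-likelihood model of all 17 libraries. A receptor was called changed when its false discovery rate (FDR), taken over every gene tested, was under 0.05 and its log2 fold change exceeded 0.5 in either direction. By this rule 7 of the 8 receptors were called, 4 higher and 3 lower in AgRP neurons, beside 12.9% of all genes tested (6.51% higher and 6.41% lower).

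*Ghsr* lay between 141 and 328 CPM over 11 AgRP libraries (median 228) and between 22.0 and 50.1 CPM over 6 POMC libraries (median 36.3). The groups did not overlap, and *Ghsr* was 6.74-fold higher in AgRP neurons (log2 fold change 2.75, SE 0.17, FDR = 4.83e-08). *Calcr* lay between 154 and 238.5 CPM (median 197) in AgRP and between 47.0 and 71.3 CPM (median 57.0) in POMC libraries, again without overlap, and was 3.26-fold higher in AgRP neurons (1.71, SE 0.10, FDR = 5.16e-08).

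*Npy1r* was opposite in direction, with 21.5 to 37.0 CPM (median 32.8) in AgRP and 121 to 321 CPM (median 198) in POMC libraries. Its log2 fold change was -2.77 (SE 0.16, FDR = 2.91e-08). The neighboring *Npy5r* lay between 5.21 and 15.6 CPM (median 10.2) in AgRP and between 22.3 and 54.9 CPM (median 38.9) in POMC libraries, which gave -2.0 on the log2 scale (SE 0.17, FDR = 9.18e-07). *Glp1r* lay between 6.96 and 18.9 CPM (median 9.45) against 36.2 to 69.5 CPM (median 42.7), which gave -1.98 (SE 0.21, FDR = 9.37e-06). These 3 receptors did not overlap between the neuron types, and in every fit that left out 1 library all 5 receptors so far described stayed past both thresholds.

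The 3 remaining receptors overlapped between the neuron types. *Npy2r* lay between 96.5 and 322 CPM in AgRP and between 76.9 and 135 CPM in POMC libraries, which gave 0.72 on the log2 scale (SE 0.15, FDR = 0.00224). Its difference within states was 1.42 in fed, 0.38 in fasted and 0.38 in leptin mice, and without the high-*Slc1a2* libraries it was 0.48 (FDR = 0.0201), under the size threshold. *Mc3r* gave 0.53 (SE 0.15, FDR = 0.0158), which fell to 0.30 (FDR = 0.048) without those libraries and lost its call in 4 of 17 fits that left out 1 library, with the highest FDR (0.0646) without POMC fasted replicate 2. *Mc4r* was under the size threshold (-0.44, SE 0.16, FDR = 0.0481) and stood at -0.17 (FDR = 0.532) without the high-*Slc1a2* libraries. In bulk TRAP RNA, fewer cells of a type and less RNA per cell cannot be told apart.

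Within AgRP neurons, fasting changed 1 receptor past the thresholds. *Npy2r*, the inhibitory receptor for peptide YY and NPY, fell to less than its fed level in every library. It stood at 265, 322 and 232 CPM in the fed libraries and at 147, 96.5, 113 and 145 CPM in the fasted libraries. Every fasted library was below every fed library, and the log2 fold change was -1.11 (SE 0.18, FDR = 0.00491). The call held in all 11 fits that left out 1 library of the 3 states, where the highest FDR was 0.0259. By comparison, 3.89% of all genes tested were called between fasted and fed mice.

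*Ghsr*, the receptor for ghrelin, moved the other way and just missed the threshold. It stood at 211, 217 and 141 CPM in fed and at 328, 228, 324 and 311 CPM in fasted libraries, groups that did not overlap. The log2 fold change was 0.66 (SE 0.17, FDR = 0.053). Same-numbered libraries of different states had correlated residuals, and with the replicate number as a block *Ghsr* was called (0.75, FDR = 0.000443), as it was by DESeq2 (FDR = 0.0113). The low fed value was that of replicate 4, a high-*Slc1a2* library, and without the high-*Slc1a2* libraries the difference was 0.44 (FDR = 0.114). The part of *Slc1a2* in this difference was not tested.

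*Glp1r* stood at 16.6, 14.03 and 18.9 CPM in fed and at 9.15, 7.14, 6.96 and 15.6 CPM in fasted libraries. Only fasted replicate 4, a high-*Slc1a2* library, reached into the fed range. The difference (-0.76, SE 0.35, FDR = 0.271) was not called. With the replicate block it was -0.77 (FDR = 0.00495), and without the high-*Slc1a2* libraries it was -1.0 (FDR = 0.00797), both past the thresholds.

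The other 5 receptors were not called with fasting. *Mc3r* stood at 60.4, 69.9 and 46.2 CPM in fed and at 51.4, 37.2, 45.4 and 46.8 CPM in fasted libraries (-0.37, SE 0.16, FDR = 0.226), and was called only without the high-*Slc1a2* libraries (-0.56, FDR = 0.0412). *Npy5r* stood at 15.6, 13.4 and 11.8 CPM in fed and at 11.4, 10.2, 10.7 and 8.75 CPM in fasted libraries. Its groups did not overlap, yet the difference (-0.40, SE 0.13, FDR = 0.12) was under the size threshold with and without the block.

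*Calcr* stood at 205, 238.5 and 210 CPM in fed and at 199, 154, 195 and 202 CPM in fasted libraries. These groups did not overlap either, yet the difference (-0.21, SE 0.11, FDR = 0.368) was under the size threshold. *Npy1r* was at 37.0, 32.7 and 32.8 CPM in fed and at 34.2, 34.1, 33.5 and 33.0 CPM in fasted libraries, and the 95% interval of its log2 fold change ran from -0.19 to 0.18. For *Mc4r* the interval ran from -0.51 to 0.39 and so included the threshold size.

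Leptin given to fasted mice changed 3 receptors past the thresholds, against 1.8% of all genes tested. The fasted libraries enter this comparison as well as the previous one. *Mc3r* rose, with fasted libraries at 51.4, 37.2, 45.4 and 46.8 CPM and leptin libraries at 82.0, 73.5, 90.3 and 61.0 CPM. All 4 leptin libraries were above all 4 fasted libraries, and the log2 fold change was 0.76 (SE 0.15, FDR = 0.0211).

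Both receptors for NPY that share a locus fell. *Npy1r* went from 34.2, 34.1, 33.5 and 33.0 CPM in fasted to 22.7, 28.4, 22.4 and 21.5 CPM in leptin libraries, or -0.51 on the log2 scale (SE 0.09, FDR = 0.0119). *Npy5r* went from 11.4, 10.2, 10.7 and 8.75 CPM to 7.24, 7.41, 7.11 and 5.21 CPM, or -0.60 (SE 0.13, FDR = 0.031). The groups did not overlap for either receptor.

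The 3 leptin calls were close to the thresholds, and none was called with counts scaled to total library size, without TMM factors. With 1 library left out at a time, *Mc3r* and *Npy1r* kept their calls in 6 of 11 fits and *Npy5r* in 3 of 11, and no receptor was called without fasted replicate 2, leptin replicate 1 or leptin replicate 3. The highest FDR was 0.0719 for *Mc3r* without leptin replicate 1 and 0.117 for *Npy5r* without fasted replicate 3, and the *Npy1r* FDR stayed at or under 0.0465 while its size fell under the threshold. With the replicate block all 3 were called, at FDR = 0.0004, 0.000528 and 0.000583 for *Mc3r*, *Npy1r* and *Npy5r*. Without the high-*Slc1a2* libraries *Mc3r* (0.87, FDR = 0.0058) and *Npy5r* (-0.57, FDR = 0.0157) were called and *Npy1r* (-0.47, FDR = 0.0463) was under the size threshold.

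*Ghsr* (-0.30, SE 0.16), *Npy2r* (0.19, SE 0.16), *Glp1r* (0.15, SE 0.33), *Calcr* (-0.11, SE 0.11) and *Mc4r* (0.10, SE 0.21) were not called with leptin. For *Npy2r* the leptin libraries, at 172, 131, 155 and 117 CPM, lay among and above the fasted libraries and below the lowest fed library. Measured against fed mice, where 5.4% of all genes were called, *Npy2r* was lower in leptin mice (-0.92, SE 0.18, FDR = 0.0105), as were *Npy5r* (-1.0, SE 0.13, FDR = 0.00174) and *Npy1r* (-0.51, SE 0.09, FDR = 0.00837). The *Npy2r* call was lost without fed replicate 3 (FDR = 0.0506), and the *Npy1r* call was kept in 7 of 11 fits that left out 1 library, since its size fell under the threshold without fed replicate 1 or leptin replicate 1, 3 or 4. *Glp1r* (-0.61, FDR = 0.342) was called lower with the replicate block (-0.62, FDR = 0.0133) and without the high-*Slc1a2* libraries (-0.88, FDR = 0.0098).

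**Figure D2:**
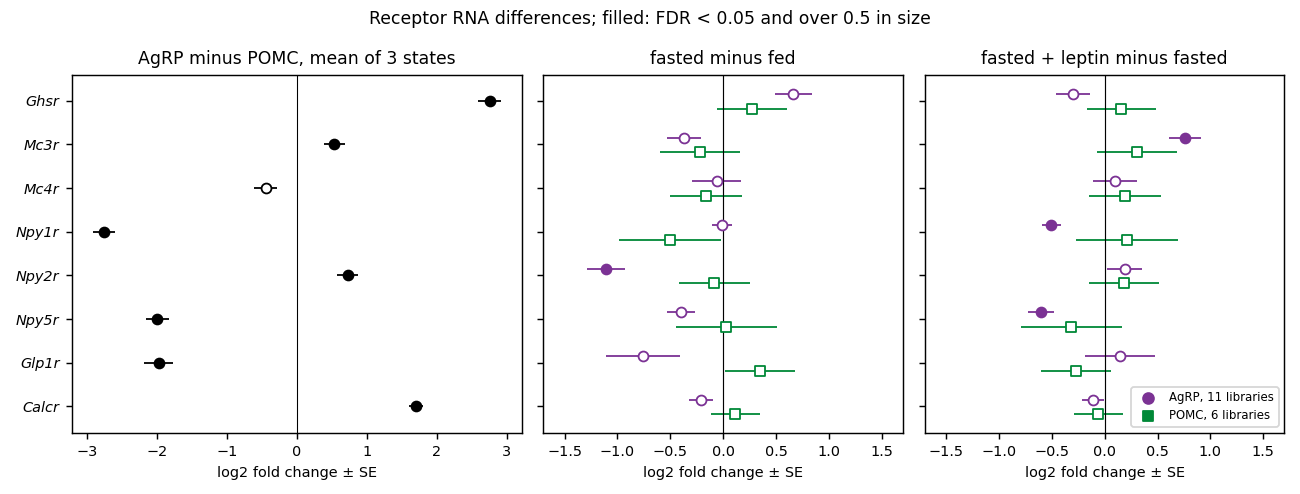
Log2 fold changes of the 8 receptors with bars of 1 standard error on either side, for AgRP minus POMC neurons (left) and, in AgRP (circles) and POMC neurons (squares), for fasted minus fed and leptin minus fasted mice. Filled symbols passed both thresholds. In AgRP neurons *Npy2r* lies at -1.11 with fasting and *Mc3r*, *Npy1r* and *Npy5r* at 0.76, -0.51 and -0.60 with leptin, while no POMC symbol is filled.

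In POMC neurons no receptor was called in any contrast between states, and edgeR called 0.0% of all genes in each of the 3. At an unadjusted p under 0.05 there were 273 genes between fasted and fed, 151 between leptin and fasted and 277 between leptin and fed mice, and DESeq2 called 3, 10 and 7 genes. Receptor log2 fold changes lay between -0.50 and 0.43, with standard errors of 0.23 to 0.48, and no receptor reached an unadjusted p under 0.05. Without the replicate block, the 95% interval of the fasting change in POMC neurons ran from -0.73 to 0.57 for *Npy2r* and from -1.44 to 0.44 for *Npy1r*. With the block the *Npy1r* change was -0.50 (SE 0.07, FDR = 0.0611) and the *Npy2r* change -0.09 (SE 0.07, FDR = 0.578). Neither was called. *Npy1r* in POMC neurons stood at 321 and 171 CPM in fed, 225 and 121 CPM in fasted and 262 and 142 CPM in leptin libraries, and in each state the lower value was that of the high-*Slc1a2* library. *Npy2r* stood at 121 and 83.1, 116 and 76.9, and 135 and 86.2 CPM, split the same way.

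Whether a state acted differently on the receptors in the AgRP and POMC neurons was tested as an interaction. edgeR called no receptor, with 1 at an unadjusted p under 0.05 for fasting (*Npy2r*) and none for leptin, and DESeq2 also called none, against 0.156% of all genes for fasting and 0.0744% for leptin. The largest were *Glp1r* (-1.12, SE 0.54, FDR = 0.583) and *Npy2r* (-1.03, SE 0.36, FDR = 0.361) for fasting. With the replicate block *Npy2r* (-0.96, FDR = 0.00846), *Glp1r* (-1.05, FDR = 0.0193) and, for leptin, *Npy1r* (-0.73, FDR = 0.00234) passed both thresholds. Without the high-*Slc1a2* libraries *Glp1r* passed for fasting (-1.71, FDR = 0.0466).

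Genes linked to the receptors by function were examined from lists. Of 5 peptide ligand genes tested, none was called with fasting (median log2 fold change 0.62, all genes 0.0176) or leptin. In AgRP neurons *Agrp* nevertheless averaged 384 ± 106 CPM (SD) in fed, 1336 ± 528 CPM in fasted and 1233 ± 696 CPM in leptin libraries. *Npy* averaged 601 ± 215, 1952 ± 863 and 1796 ± 1051 CPM. The paper lists both among the genes induced by fasting. Of the 5 genes, 3 were higher and 1 lower in AgRP than in POMC neurons: *Agrp* (5.91), *Npy* (5.55) and *Calca* (1.20), against *Pomc* (-5.64). With the replicate block 3 ligand genes were called higher with fasting and 1 with leptin. Against fed mice *Agrp* was higher in leptin mice, which had also been fasted (1.69, SE 0.47, FDR = 0.0499). That call was kept in 2 of 11 fits that left out 1 library. *Pcsk1*, which cleaves prohormones, rose with fasting (0.74, SE 0.12, FDR = 0.00543) as the only one of 5 genes for ligand processing.

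The list of receptor partners held 2 of 7 tested genes that fell with fasting. *Mrap2*, an accessory protein of melanocortin and ghrelin receptors, fell by 0.62 on the log2 scale (SE 0.08, FDR = 0.00251) and was called in 11 of 11 fits that left out 1 library. *Ramp1*, which with the *Calcr* product forms an amylin receptor, fell by 0.51 (SE 0.12, FDR = 0.0298), in 6 of 11 such fits, and was under the size threshold with the replicate block. The list's median was -0.10. None of its genes was called with leptin, and in the AgRP and POMC comparison *Atrnl1* (-1.07) and *Mrap2* (-0.52) were lower in AgRP neurons.

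Of 10 other members of these receptor families only 2 passed the filter in AgRP libraries, *Gpr39* at 85.4 ± 20.3 CPM (SD, n = 3) and *Calcrl* at 7.09 ± 0.948 CPM in fed mice, and edgeR called neither with fasting or leptin, with or without the replicate block. Of 18 genes for G proteins, arrestins, receptor kinases and inward rectifier channels none was called with either state (medians -0.0537 and -0.0677), while the block called 1 higher with each. In AgRP neurons *Kcnj3* (-0.74) and *Gnai1* (-0.58) were lower than in POMC neurons in 17 of 17 fits that left out 1 library, and *Arrb1* (-0.54, FDR = 0.0432) in 6 of 17. *Gnas* was higher (2.64), but the table holds a second entry for that locus, so its reads may have been split.

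Among 46 other neuropeptide and hormone receptors, 2 rose and 2 fell with fasting (median -0.10): *Sstr4* (1.12, FDR = 0.0069) and *Hcrtr2* (0.77, FDR = 0.0164), an orexin receptor, against *Npffr2* (-0.98, FDR = 0.0347) and *Crhr1* (-0.58, FDR = 0.0255). These calls were kept in 11 of 11 fits that left out 1 library for *Sstr4*, 9 for *Hcrtr2*, 5 for *Npffr2* and 6 for *Crhr1*. The replicate block called 5 higher and 4 lower. With leptin *Vipr1* (0.99, FDR = 0.0489) rose and the somatostatin receptors *Sstr5* (-1.10, FDR = 0.00779) and *Sstr2* (-0.75, FDR = 0.00194) and *Hcrtr2* (-0.63, FDR = 0.0447) fell. The calls of *Vipr1* and *Hcrtr2* with leptin were kept in 2 and 1 of 11 fits that left out 1 library. Against POMC neurons 6 of the 46 were higher in AgRP neurons, led by *Vipr1* (4.25), *Lepr* (2.15) and *Npffr2* (1.79), and 17 were lower, led by *Prokr1* (-4.03), *Cckar* (-2.61) and *Brs3* (-2.19). Over all genes tested 6.51% were higher and 6.41% lower. The median log2 fold change was -0.46 for the list and -0.02 for all genes.

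Markers of other cells were followed beside these results. Of 7 markers of other arcuate neurons tested, 1 rose with fasting (*Pdyn*, 0.67) and 4 stood lower in AgRP libraries. Between fasted and fed AgRP libraries none of the astrocyte (7), oligodendrocyte (8), microglia (5), tanycyte and ependymal (6) or POMC neuron markers (5) was called, with medians of -0.14, -0.36, -0.63, 0.14 and -0.11, whereas the replicate block called 1 astrocyte, 1 oligodendrocyte and 2 microglia markers lower. Astrocyte markers, *Slc1a2* among them, summed to 3884 to 21077 CPM in fed, 2857 to 26843 CPM in fasted and 3134 to 26272 CPM in leptin AgRP libraries. *Slc1a2* made up most of this sum, so the highest sum of each state lay in a high-*Slc1a2* library by definition. The sum therefore does not tell whether other astrocyte markers differed in those libraries. Microglia markers summed to 24.4 to 43.3, 18.5 to 40.9 and 20.4 to 38.8 CPM in the same states. Of 7 AgRP neuron markers none was called with fasting (median 0.53), 4 were called higher with the replicate block, and *Serpina3c* and *Serpina3n* rose with leptin, in 8 and 3 of 11 fits that left out 1 library. The part of these cells in the receptor values was not tested.

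Across all 17 RNA libraries, which share the AgRP and POMC split and so vary mostly along it, the genes whose log2 CPM followed each receptor other than *Mc4r* most closely were named by Pearson correlation. They were *Acvr1c* (0.99), *Corin* (0.98) and *Bard1* (0.98) for *Ghsr* and *Ap1s3*, *Arhgap36* and *Med12* (each 0.98) for *Calcr*. For *Npy1r* they were *Shisa8* (0.99), *Tmem35* (0.98) and *Prokr1* (0.98), for *Npy5r* *Chodl*, *Decr1* and *Sstr1* (each 0.97), and for *Glp1r* *Doc2b* (0.98), *Bcat1* (0.97) and *Sntb1* (0.97). The correlations were lower for *Mc3r*, with *Mtrr* (0.92), *Irf9* (0.92) and *Tha1* (0.91), and for *Npy2r*, with *Anxa6* (0.91), *Gstm7* (0.91) and *Zfp92* (0.90). Within AgRP neurons alone, *Npy1r* and *Npy5r* had the highest correlation of all receptor pairs over the 11 libraries (r = 0.88), which share the feeding states. *Npy2r* and *Calcr* came next (r = 0.785), and the most negative pair was *Mc3r* and *Npy1r* (r = -0.674).

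Accessible chromatin around the receptors was compared first between sorted nuclei. Of 29 peaks tested, 16 were more accessible in GFP-positive and 2 in GFP-negative nuclei, with a median log2 fold change of 1.14, while 39.4% of all peaks were called (24.1% higher and 15.3% lower in positive nuclei). *Mc3r* had 7 of the higher peaks, *Ghsr* 4, *Glp1r* 3, and *Npy2r* and *Mc4r* 1 each. *Npy1r*, *Npy5r* and *Calcr* had none.

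4 regions are printed, since the data around *Ghsr*, *Npy2r*, *Mc3r* and *Glp1r* turn on them: the peaks with the largest difference between sorted nuclei near *Ghsr* and *Npy2r*, and the peaks that opened with leptin near *Mc3r* and *Glp1r*. Each is the central 300 bases of a peak, forward strand, from RefSeq GRCm38.p6, the assembly of mm10. Capitals mark a match on either strand to a STAT site (TTCNNNGAA) or an IRF site (GAAANNGAA). The peaks are intergenic, except the *Glp1r* peak, which lies in an intron of *Dnah8*.
*Ghsr* -25.8 kb (chr3:27345395-27345694): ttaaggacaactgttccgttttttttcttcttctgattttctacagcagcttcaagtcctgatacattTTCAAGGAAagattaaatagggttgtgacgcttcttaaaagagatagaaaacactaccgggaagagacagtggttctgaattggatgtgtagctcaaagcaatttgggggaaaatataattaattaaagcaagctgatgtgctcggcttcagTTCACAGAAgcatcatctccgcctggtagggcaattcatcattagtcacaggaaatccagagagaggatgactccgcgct
*Npy2r* -6.4 kb (chr3:82554329-82554628): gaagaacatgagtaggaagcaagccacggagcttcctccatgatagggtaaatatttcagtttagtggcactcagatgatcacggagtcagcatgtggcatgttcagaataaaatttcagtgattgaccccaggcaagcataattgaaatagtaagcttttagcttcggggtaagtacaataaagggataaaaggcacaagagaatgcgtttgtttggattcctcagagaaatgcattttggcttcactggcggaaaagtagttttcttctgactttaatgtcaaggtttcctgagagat
*Mc3r* +44.7 kb (chr2:172293005-172293304): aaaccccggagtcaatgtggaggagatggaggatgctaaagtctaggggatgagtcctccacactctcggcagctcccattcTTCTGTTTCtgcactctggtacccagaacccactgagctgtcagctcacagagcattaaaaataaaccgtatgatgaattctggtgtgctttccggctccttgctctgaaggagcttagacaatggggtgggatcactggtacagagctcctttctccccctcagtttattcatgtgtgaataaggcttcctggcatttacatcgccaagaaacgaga
*Glp1r* -37.6 kb (chr17:30864088-30864387): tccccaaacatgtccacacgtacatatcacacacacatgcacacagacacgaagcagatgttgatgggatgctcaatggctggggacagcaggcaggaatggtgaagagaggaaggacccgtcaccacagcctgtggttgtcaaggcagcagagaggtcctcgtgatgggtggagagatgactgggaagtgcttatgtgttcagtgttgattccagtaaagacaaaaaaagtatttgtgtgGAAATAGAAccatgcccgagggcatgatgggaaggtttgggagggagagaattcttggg

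The *Ghsr* window held 2 STAT matches, the *Mc3r* and *Glp1r* windows 1 IRF match each, and the *Npy2r* window none of the 5 motifs searched. Over all 55 windows of the feeding-state table a STAT match was found in 14.5%, against 12.4% of all peak windows, an AP-1 match (TGANTCA) in 23.6% against 31.2%, a CRE match (TGACGTCA) in 1.82% against 0.686%, a forkhead match (GTAAACA) in 3.64% against 4.57% and an IRF match in 9.09% against 9.82%. These are matches to letters on either strand, and the STAT and IRF letters can overlap each other.

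The peak at -25.7 kb of *Ghsr*, intergenic and the counterpart of the -25.8 kb peak in the other table, showed the largest difference near any of the receptors. GFP-negative libraries gave 2.46 and 2.37 CPM and GFP-positive libraries 20.9 and 17.5 CPM, or 2.98 on the log2 scale (SE 0.29, FDR = 2.26e-22). At the start site of *Ghsr* the values were 11.1 and 12.0 against 31.6 and 29.3 CPM (1.40, SE 0.19, FDR = 1.4e-12), so both peaks were higher in positive nuclei in every library.

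*Mc3r* had its largest peak difference 35.0 kb downstream of the start, at 3.33 and 2.25 CPM in negative and 18.9 and 14.6 CPM in positive nuclei (2.58, SE 0.29, FDR = 1.06e-16). The *Npy2r* peak 6.4 kb upstream stood at 1.97 and 2.49 against 10.8 and 10.5 CPM (2.25, SE 0.34, FDR = 1.07e-09). The *Glp1r* peak at -37.5 kb stood at 0.862 and 0.829 against 5.16 and 5.17 CPM (2.59, SE 0.51, FDR = 3.31e-06), although *Glp1r* mRNA was lower in AgRP libraries than in those of POMC neurons. The negative nuclei hold all other ARC cells, so this comparison and that of TRAP RNA have different references.

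No start site other than that of *Ghsr* was called higher in positive nuclei. The peak at the start of *Mc4r* was less accessible in positive nuclei, at 5.24 and 5.92 CPM against 10.2 and 10.3 CPM (-0.88, SE 0.29, FDR = 0.00816, called in 3 of 4 fits with a library left out), whereas a peak 24.6 kb downstream was more accessible (1.10, SE 0.41, FDR = 0.0206), called in 1 of 4 fits with a library left out. The start site peaks of *Npy1r* (-0.35, SE 0.24), *Npy5r* (0.04, SE 0.22), *Npy2r* (0.36, SE 0.22), *Mc3r* (0.27, SE 0.25), *Glp1r* (0.28, SE 0.50) and *Calcr* (0.58, SE 0.39) were not called. A second *Calcr* peak, 0.3 kb from the start, fell under the filter and was not tested. The other peak lower in positive nuclei was at -32.7 kb of *Mc3r* (-1.60, SE 0.53, FDR = 0.00813), kept in 2 of the 4 such fits.

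**Figure D3:**
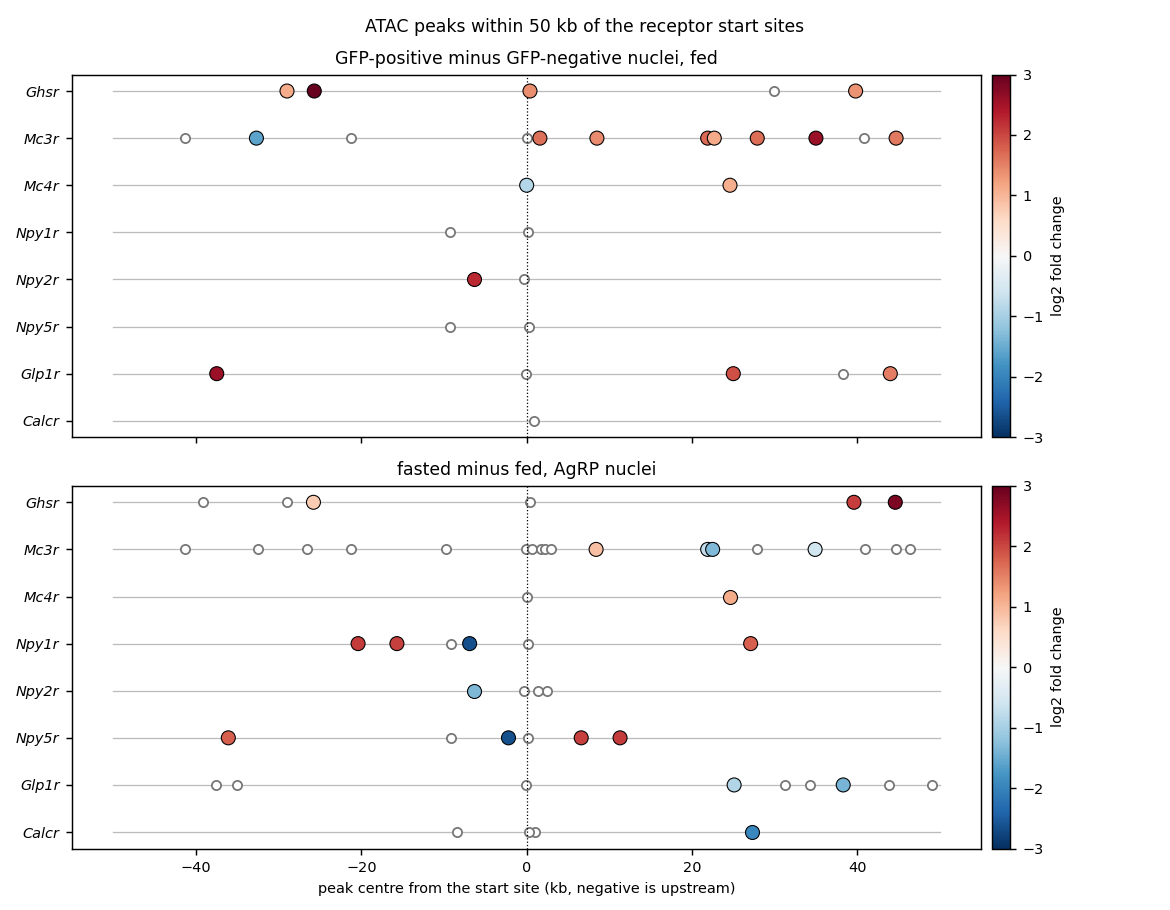
Position of each tested peak relative to the start site of its receptor, in kb, for sorted nuclei (top) and fasted minus fed AgRP nuclei (bottom). Filled circles passed both thresholds and their color gives the log2 fold change, and open circles did not pass. Peaks higher in GFP-positive nuclei lie around *Ghsr*, *Mc3r*, *Glp1r*, *Npy2r* and *Mc4r*, and no start site peak was called between fasted and fed mice.

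Fasting changed accessibility at 16 of the 49 peaks tested in the feeding states: 8 opened and 8 closed, with a median log2 fold change of -0.20, against 27.3% of all peaks called (19.0% opened and 8.36% closed). No start site peak was among them. The opened peaks lay near *Ghsr* (3), *Npy1r* and *Npy5r* (3, shared), *Mc3r* (1) and *Mc4r* (1), and the closed peaks near *Mc3r* (3), *Glp1r* (2), *Npy2r*, *Calcr* and the *Npy1r* and *Npy5r* locus (1 each).

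Near *Ghsr*, the peak at +39.6 kb stood at 2.77 and 3.22 CPM in fed, 13.4 and 12.2 CPM in fasted and 17.7 and 15.2 CPM in leptin libraries. Both fasted libraries were above both fed libraries, and the log2 fold change was 2.09 (SE 0.31, FDR = 0.000132). The smaller peak at +44.6 kb also opened (2.82, SE 0.56, FDR = 0.00129). The peak at -25.8 kb, printed above, stood at 12.6 and 17.6 CPM in fed, 23.8 and 27.6 CPM in fasted and 35.1 and 37.0 CPM in leptin libraries (0.75, SE 0.22, FDR = 0.0149). Its call was kept in 4 of 6 fits that left out 1 library, and against fed mice it opened in leptin mice in all 6 (1.24, SE 0.22, FDR = 0.000298).

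At the *Npy2r* peak at -6.4 kb accessibility fell in the same direction as its mRNA. Fed libraries were at 16.5 and 13.2 CPM, fasted libraries at 5.37 and 6.31 CPM and leptin libraries at 9.36 and 8.04 CPM. Fasted libraries lay lowest and leptin libraries between the others, and the fasted to fed change was -1.34 on the log2 scale (SE 0.30, FDR = 0.00293) that held in all 6 fits that left out 1 library. The start site peak of *Npy2r* stood at 22.4 and 24.2 CPM in fed and 17.1 and 22.3 CPM in fasted libraries and was not called.

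The *Npy1r* and *Npy5r* locus had changes both ways. The peak 20.4 kb upstream of *Npy1r*, which is 11.3 kb downstream of the start of *Npy5r*, opened (2.09, SE 0.46, FDR = 0.00278), as did the peak at -15.7 kb, in an exon of *Npy5r*, from 0.881 and 1.83 CPM to 6.98 and 4.99 CPM (2.06, SE 0.41, FDR = 0.0012). A narrow peak at -6.9 kb closed, from 3.65 and 2.12 CPM to 0.517 and 0.379 CPM (-2.64, SE 0.60, FDR = 0.00354), a call kept in all 4 fits that left out a fasted or leptin library; without either fed library the peak fell under the filter. Start site peaks of both genes were not called, and neither mRNA was called with fasting.

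For the other receptors with changes, the closed peaks with the largest size were *Calcr* +27.3 kb (-1.957, SE 0.59, FDR = 0.0188), *Glp1r* +38.3 kb (-1.40, SE 0.43, FDR = 0.0206) and *Mc3r* +22.5 kb (-1.33, SE 0.47, FDR = 0.0409), and the opened peaks were *Mc4r* +24.6 kb (1.11, SE 0.33, FDR = 0.0171) and *Mc3r* +8.4 kb (0.90, SE 0.33, FDR = 0.0477). Of these, the *Calcr* call was kept in 4 of 5 fits that left out 1 library, since the peak fell under the filter without fed replicate 1, and of 6 such fits the *Mc4r* call was kept in 3 and the others in 2 or fewer. Of 29 pairs of overlapping peaks in both tables, 16 were higher in GFP-positive nuclei, and 9 of those changed with fasting, 4 opened and 5 closed. Over all peaks tested in the feeding states 27.3% were called with fasting. The share among all peaks higher in GFP-positive nuclei was not counted, so the 9 have no matched reference.

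Leptin opened 2 of the 49 peaks and closed none, against 1.74% of all peaks called. *Mc3r* +44.7 kb stood at 4.78 and 6.87 CPM in fed, 5.17 and 6.00 CPM in fasted and 16.5 and 12.96 CPM in leptin libraries. It was higher in both leptin libraries than in any other, and the leptin to fasted change was 1.40 on the log2 scale (SE 0.31, FDR = 0.0235). *Glp1r* -37.6 kb stood at 6.42 and 6.51 CPM, 4.01 and 6.56 CPM and 12.9 and 12.7 CPM (1.27, SE 0.32, FDR = 0.0448). Both calls were kept in 2 of 6 fits that left out 1 library and were lost without any of the fasted or leptin libraries. Against fed mice, where 36.7% of all peaks were called, 10 opened and 5 closed in leptin mice, with the largest increases at *Ghsr* +44.6 kb (2.47, SE 0.57, FDR = 0.00254), *Ghsr* +39.6 kb (2.44, SE 0.31, FDR = 2.22e-05) and *Npy1r* -15.7 kb (2.39, SE 0.40, FDR = 0.000225) and the largest decrease at *Npy1r* -6.9 kb (-3.29, SE 0.64, FDR = 0.000732).

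**Figure D4:**
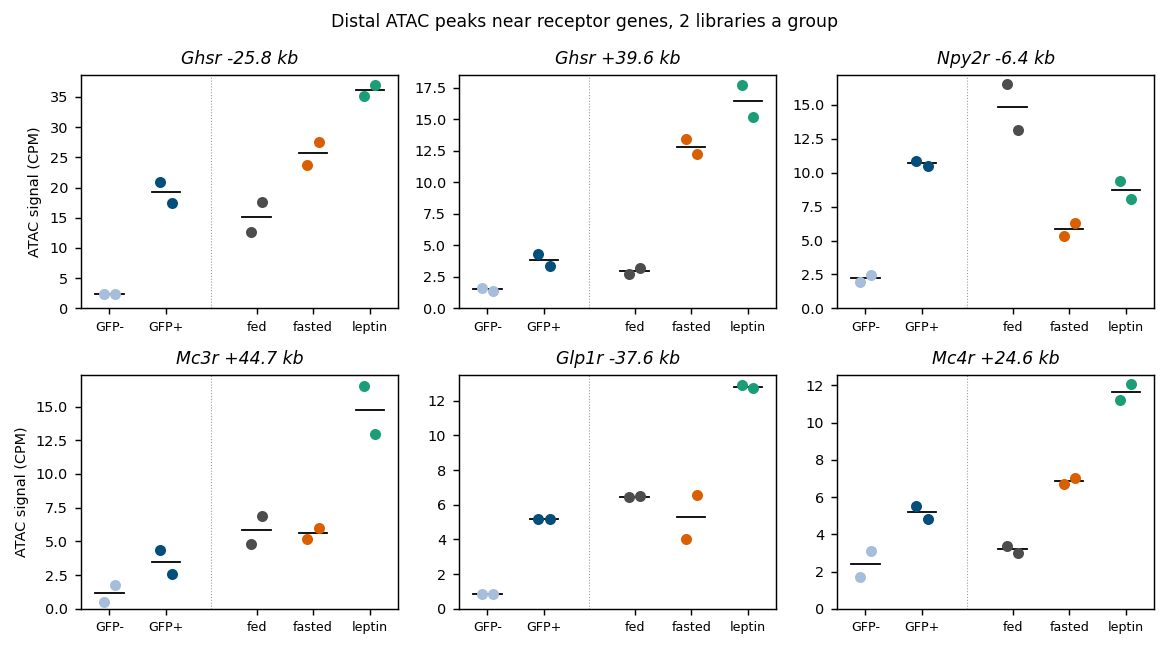
Accessibility in CPM of 6 distal peaks, for each library of sorted nuclei and of feeding states. Each point is 1 library and each bar the mean of 2, with names by the feeding-state table. *Ghsr* -25.8 kb, *Npy2r* -6.4 kb and *Mc4r* +24.6 kb were chosen for the largest GFP-positive excess of their gene. *Ghsr* +39.6 kb was chosen for its opening with fasting, and *Mc3r* +44.7 kb and *Glp1r* -37.6 kb for theirs with leptin. GFP-positive libraries lie above GFP-negative libraries at all 6 peaks, which partly follows from this choice, and fasted libraries lie lowest at *Npy2r* -6.4 kb.

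CUT&RUN peak lists were placed over the same windows. The list from the peak caller SEACR, taken as IRF3 CUT&RUN from its sample label although its own name does not mention IRF3, and made in AgRP nuclei that overexpressed the IRF3-2D form, overlapped 5 of 55 receptor peaks (9.09%) against 8.42% of all peaks in the table, and CTCF CUT&RUN of AgRP nuclei (1 library) overlapped 13 (23.64%) against 17.91%. In the table of sorted nuclei the IRF3 list overlapped 3 of 30 receptor peaks (10.0%, all peaks 13.58%) and CTCF 10 (33.33%, all peaks 27.17%). The peaks at *Ghsr* -25.8 kb, *Npy2r* -6.4 kb and *Glp1r* -37.6 kb each overlapped 1 CTCF peak. *Mc3r* +8.4 kb and the start site peak of *Npy1r* (+0.1 kb) each overlapped 2 peaks of the IRF3 list. *Mc3r* -32.5 kb, *Mc3r* -26.6 kb and *Glp1r* +49.1 kb overlapped 1 each.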

How the data were processed

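Per the paper's methods and the submitters' processing notes, the authors used HISAT2 (mm10) and featureCounts (Subread) for TRAP RNA, with an annotation trimmed of overlapping transcripts. For ATAC-seq they used Bowtie2 and MACS2, and bedtools for coverage of peaks. The deposited RNA and ATAC-seq values are raw counts. The deposited IRF3 CUT&RUN list gives the SEACR signal per peak, and the deposited CTCF list a fold enrichment ratio, of which only positions were used. Tables of log2 CPM were not used. Whole arcuate RNA and the IgG sample were not analysed here, nor were 4 cerebellum lists.

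Counts were fitted in R 4.3.3 with edgeR 4.0.16 (quasi-likelihood, TMM, mean over 1 CPM), by state, by neuron type and state, or by sort, with FDR by the Benjamini-Hochberg method over all features tested, and standard errors from the F statistic. The 95% intervals extend 1.96 standard errors to either side, which is narrower than the F tests imply with few libraries. CPM used TMM scaling. Per-kilobase levels divide CPM by the deposited counted length. Peaks were assigned by overlap with the 50 kb windows. DESeq2 1.42.0 and other scalings, filters, windows and thresholds were alternatives. Same-numbered RNA libraries had residual correlations of 0.534 to 0.812 (AgRP, 10 pairs) and 0.732 to 0.768 (POMC), so the replicate number was used as an alternative block. For ATAC-seq they were 0.096 (sorted nuclei) and -0.001 to 0.16 (feeding states, not taken as paired). Per the paper, positive and negative nuclei were sorted from shared pools; the block assumes that a shared number marks a shared pool, and it changed no receptor peak call in sorted nuclei. Sequences were read with pysam 0.24.0, pandas 2.3.3 and Python 3.11.15. Scripts were tested on simulated counts. Receptors were all named. The genes most like *Mc4r* across RNA libraries are not reported here. From each list, up to 3 called genes per direction were named, and for peaks the start site peak and the called peak of largest size. Further called peaks of each receptor, and peaks with values by library, were singled out after their values were seen. Receptors and lists were chosen with earlier results of these data known.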

Additional observations from a re-analysis of the deposited data

Results flagged for a closer look

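In groups of 4 AgRP RNA libraries, 4 of the 16 receptor groups examined held 1 library far from the rest by Dixon's criterion, which flags about 1 in 20 groups by chance. *Ghsr* in fasted mice had a lowest library of 228.4 CPM (replicate 2), with the others at 311 to 328 CPM. *Calcr* in fasted mice also had its lowest value, 154.4 CPM, in replicate 2, with the others at 195 to 202 CPM. *Npy5r* in leptin mice had a lowest library of 5.211 CPM (replicate 4), with the others at 7.11 to 7.41 CPM. *Glp1r* in leptin mice had a highest library of 17.55 CPM (replicate 4), with the others at 7.83 to 9.45 CPM. Replicate 4 is a high-*Slc1a2* library, and within AgRP neurons *Glp1r* was higher by 0.88 on the log2 scale in those libraries than in the others of the same states. The cause was not tested.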

How the results depend on the processing

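The replicate pairing changed the counts of receptors called: 3 rather than 1 with fasting, and 2 and 1 rather than none for the fasting and leptin interactions. It changed no other count of receptors by more than 1.5 times, and left 16 higher and 2 lower peaks in sorted nuclei. DESeq2 called 2 receptors with fasting, and leaving out the high-*Slc1a2* libraries (chosen after seeing the data) gave 3, and 1 for the fasting interaction. Scaling by library size left 0 of 3 leptin calls. The share of called genes that were higher moved from 50.37% to 65.28% between AgRP and POMC neurons and from 72.17% to 62.03% with fasting, and that of peaks in sorted nuclei from 61.17% to 71.88% (median of all peaks 0.16), under that scaling.

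Windows of 25 and 100 kb gave 8 and 29 higher peaks (16 at 50 kb) and 1 and 4 lower peaks (2) in sorted nuclei. With fasting they gave 4 and 13 opened peaks (8), and 25 kb gave 5 closed (8). Between leptin and fasted mice they gave 0 and 4 opened (2), and between leptin and fed mice 4 and 17 opened (10) and 2 and 10 closed (5). An FDR of 0.01 left 4 opened and 2 closed with fasting, 0 opened between leptin and fasted, and 3 closed between leptin and fed mice.

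With 1 library left out, receptors called ranged from 1 to 2 with fasting, 0 to 3 with leptin, 2 to 3 between leptin and fed mice and 6 to 8 between neuron types. Peaks ranged from 9 to 13 higher and 0 to 2 lower in sorted nuclei, 5 to 7 opened and 2 to 5 closed with fasting, 0 to 2 opened with leptin, and 6 to 10 opened and 2 to 6 closed between leptin and fed mice. Sorted counts were lowest without GFP-positive replicate 1, and closed peaks with fasting without fasted replicate 2. The cause was not tested.

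The values that turned direction were not called. *Mc4r* did with fasting (0.04127 without the high-*Slc1a2* libraries, and -0.2107 to 0.04223 over fits without a library, 0.003518 among them), with leptin (-0.04256 and -0.02657 to 0.2568) and between leptin and fed mice (-0.001293, -0.01498 by library size, -0.08464 with the block, and -0.04687 to 0.1959, with -0.02844 and -0.03386 among them). Without a library, *Npy1r* with fasting ranged from -0.05452 to 0.04301, *Glp1r* with leptin from -0.2108 (without leptin replicate 4) to 0.4736, the sorted-nuclei peak at the start of *Glp1r* from -0.1509 to 0.7063 (-0.06117 among them) and that at -9.3 kb of *Npy1r* from -0.05268 to 0.1311 (-0.00922 among them). Other combinations of result and alternative kept direction and side in 792 cases, while 78 lost and 11 gained a call. The few counts of *Mc4r* limit what can be said of it.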
